A study of Mus with 8 samples.

Results

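Transcripts of the proteasome were followed in interscapular brown fat of mice labelled as lacking Hilpda and of wild type mice. The members are all genes whose symbol starts with Psma, Psmb, Psmc, Psmd, Psme or Psmg and whose probe set names that gene alone, without Psmb8 and Psmb9. This rule gave 48 of 30346 genes, each with a single probe set: 16 of the 20S core, 17 of the 19S cap, 3 activators, 7 assembly factors and 5 others. Psmb5 and Psme2 were not members because their probe sets also name another gene. Each of the 8 arrays held total RNA of 1 mouse, 4 labelled HILPDA KO and 4 labelled wild type, all of C57BL/6 background and labelled female, with no treatment named. The labels used here give no ages, no allele and no cell type for the deletion. Values are log2 expression values, so a difference of 1 is a doubling.

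The proteasome is the protease that degrades proteins tagged with ubiquitin. Its barrel-shaped 20S core carries alpha subunits in the outer rings, which guard the entry, and beta subunits in the inner rings, some of which cut the substrate. The 19S cap recognises ubiquitin, unfolds the substrate with a ring of ATPases and feeds it into the core. Brown adipocytes are known to raise proteasome activity in the cold through Nfe2l1, a transcription factor of the endoplasmic reticulum membrane that drives proteasome genes when proteolysis falls short.

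By their value distributions the arrays form 2 sets, one with replicates 1 and 2 (set 1) and one with replicates 3 and 4 (set 2), each with 2 KO and 2 wild type arrays; no label names them. An array's median over all genes lay at 3.93 to 3.99 in set 1 and at 4.92 to 4.97 in set 2, so levels are compared within a set only. Hilpda read 4.45 and 4.37 in arrays labelled KO and 4.37 and 4.28 in wild type of set 1, where it does not follow the labels, and 5.60 and 5.51 against 6.00 and 5.92 in set 2. Directions below therefore refer to the labels. Xist read 3.49 to 4.10 and the Y-linked genes Uty and Eif2s3y 9.31 to 10.93 and 8.53 to 11.01 on the 8 arrays, which goes against the label of female mice. All 12 markers of brown adipocytes were above background on every array, background being the 95th percentile of 1225 olfactory receptor genes on that array.

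Of the 48 members, 44 were above background on all 8 arrays. Psma8 and Psmb11, the alpha and beta subunits known mainly from testis and thymus, were not. Psma8 read 3.37 to 3.56 in set 1 and 4.13 to 4.25 in set 2, and Psmb11 read 3.15 to 3.37 and 3.64 to 3.79. The assembly factor Psmg3 and the pseudogene Psmb6-ps also stayed within background.

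Over all 8 arrays no proteasome gene differed between the genotypes by more than the spread. With the set as a block, limma with Benjamini-Hochberg adjustment over all genes called 0 of the 48 members and 0 of 30346 genes (0%). At an unadjusted p under 0.05 the members counted 0, against 4.83% of all genes and 5.57% of genes above background. The differences between KO and wild type ran from -0.19 for Psmd5 to 0.25 for Psma1, with 32 members above 0 and 16 below and a median of 0.02. All genes had a median of 0.01. The widest 95% interval above 0 reached 0.94, for Psma6, so changes of nearly 2-fold in that gene are within the error. Psma1, a subunit of the alpha ring, had the smallest p, with a difference of 0.25 (SE 0.13, limma adjusted p = 0.986).

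Within the sets most members lay on opposite sides of 0. In set 1, 36 of the 48 had a lower mean in KO than in wild type, as had 48.9% of all genes and 63.1% of genes above background. In set 2, 34 of the 48 had a higher mean in KO, as had 53.5% and 56.4%. Both applied to 30 members (62.5%), against 29.7% and 41.5%. The median member difference was -0.10 in set 1 and 0.20 in set 2. The medians over the 13704 genes above background were -0.07 and 0.04, so they lay on the same sides of 0 but closer to it. Both KO arrays lay below both wild type arrays of set 1 in 21 members (43.8%), as did 19.5% of all genes and 30.4% of genes above background. They lay above both wild type arrays of set 2 in 24 members (50%), against 23.9% and 31.1%. The reverse order was seen in 2 members in set 1 (18.9% of all genes and 12.9% of genes above background) and in 6 in set 2 (19.1% and 22.2%). KO below in set 1 together with KO above in set 2 was seen in 13 members (27.1%), against 7.42% of all genes and 14.1% of genes above background. The opposite pattern, KO above in set 1 and below in set 2, occurred in Psmd1 and Psmc3ip, against 5.29% of all genes and 6.25% of genes above background. In 0 members did the groups part the same way in both sets, against 5.31% and 4.86%.

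The size of these counts varied with the scaling of the arrays. After quantile normalization over all arrays the 13 members became 7 (14.6%), against 6.19% of all genes and 10.1% of genes above background. The member medians became -0.02 in set 1, with 26 of 48 below 0, and 0.11 in set 2. The set 1 difference was higher than as deposited in 43 of 48 members and the set 2 difference lower in 45. Single differences changed sign or moved in size by over 1.5 times in 39 members in set 1 and 27 in set 2. Median centring of the arrays left the count at 13, with medians of -0.13 and 0.19.

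**Figure D1:**
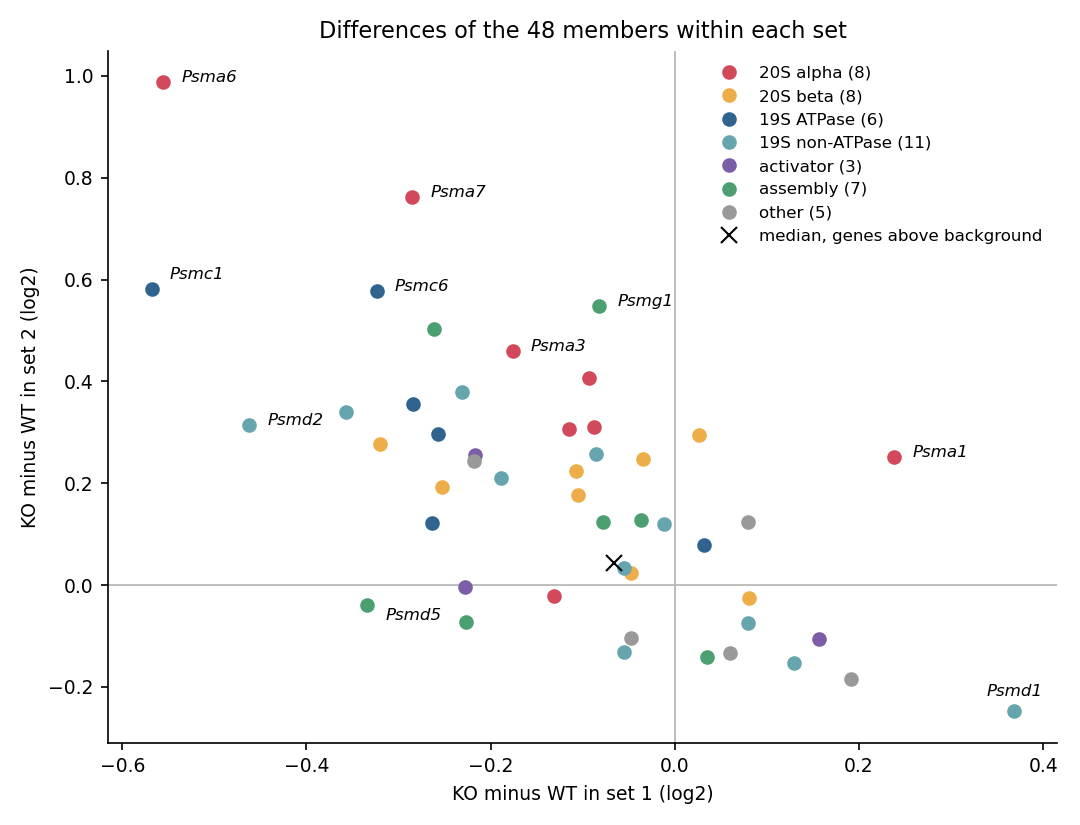
Each point is 1 of the 48 members, placed by its KO minus wild type difference in set 1 (x axis, log2) and in set 2 (y axis, log2), coloured by class with the number of members in brackets; the cross is the median of the 13704 genes above background. The upper left field, lower in KO of set 1 and higher in KO of set 2, holds 30 of the 48 points, with Psma6 at the top and Psmd1 farthest out among the 8 at the lower right.

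The difference between the sets was tested as an interaction. No member passed over all genes, whereas 151 of 30346 genes did (0.498%). At an unadjusted p under 0.05 the members counted 15 of 48 (31.2%), against 14.9% of all genes and 26.2% of genes above background, so this share is near that of genes measured well. Psma6 came closest, with an adjusted p of 0.0771 in limma over all genes. It passed when limma was given only genes with a mean above the median of all genes (adjusted p = 0.049) or only genes above background (adjusted p = 0.0397). The filter on background was added after the data were seen. In limma Psma6 did not pass after quantile normalization (adjusted p = 0.0775) or median centring (adjusted p = 0.088). Nor did it pass with a variance trend in eBayes, where 0 genes were called. Within set 1 limma called 0 members and 0 genes (0%), with 4 members at an unadjusted p under 0.05 (7.75% of all genes and 13.5% of those above background). Within set 2 it called 0 members and 1 gene (0.0033%), with 9 members at an unadjusted p under 0.05 (15.1% and 23.8%).

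The alpha ring of the 20S core held the widest set 2 differences of the members. Of its 8 members, 7 had a lower KO mean in set 1 and 7 a higher KO mean in set 2, with medians of -0.12 and 0.36 (-0.04 and 0.25 after quantile normalization). Groups parted where the KO and wild type arrays of a set did not overlap, however small the gap. In 4 of its 8 members (50%) they parted below in set 1 and above in set 2. The share was 7.42% of all genes and 14.1% of genes above background. After quantile normalization it was 1 of 8 members (12.5%), against 6.19% and 10.1%, so near the background. Psma6 read 12.83 and 12.61 in KO against 13.02 and 13.53 in wild type of set 1, and 14.41 and 14.57 against 13.33 and 13.67 in set 2. Both KO arrays of Psma6 were thus below both wild type arrays in the first set and above both in the second. Its difference was -0.56 (SE 0.20) in set 1 and 0.99 (SE 0.20) in set 2, and these differed by 1.54 (SE 0.28). With any 1 array left out that contrast ran from 1.29 to 1.80, and it was 1.31 after quantile normalization.

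Psma7, the alpha subunit whose testis counterpart is Psma8, followed the same order. It read 8.89 and 8.48 in KO against 9.01 and 8.94 in wild type of set 1, and 9.98 and 9.80 against 9.04 and 9.22 in set 2. The set 2 groups lay well apart, by 0.76 (SE 0.16, limma adjusted p = 0.117), while in set 1 the gap between KO replicate 1 and the nearer wild type array was small. Psma3 read 13.14 and 12.91 against 13.16 and 13.25 in set 1, and 13.30 and 13.31 against 12.79 and 12.90 in set 2. Its set 2 difference was 0.46 (SE 0.11, limma adjusted p = 0.144), and the KO arrays of that set agreed within 0.02. Psma4 and Psma5, with set 2 differences of 0.31 and 0.41, had overlapping groups in set 1. Psma2 parted in both sets, with differences of -0.11 and 0.31. Its gap in set 1 was small, with KO at 11.63 and 11.57 against 11.64 and 11.78. Psma1 stood apart from the ring: KO read 11.84 and 11.43 against 11.55 and 11.24 in set 1, and 13.02 and 12.75 against 12.48 and 12.78 in set 2, so its groups overlapped in both sets.

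**Figure D2:**
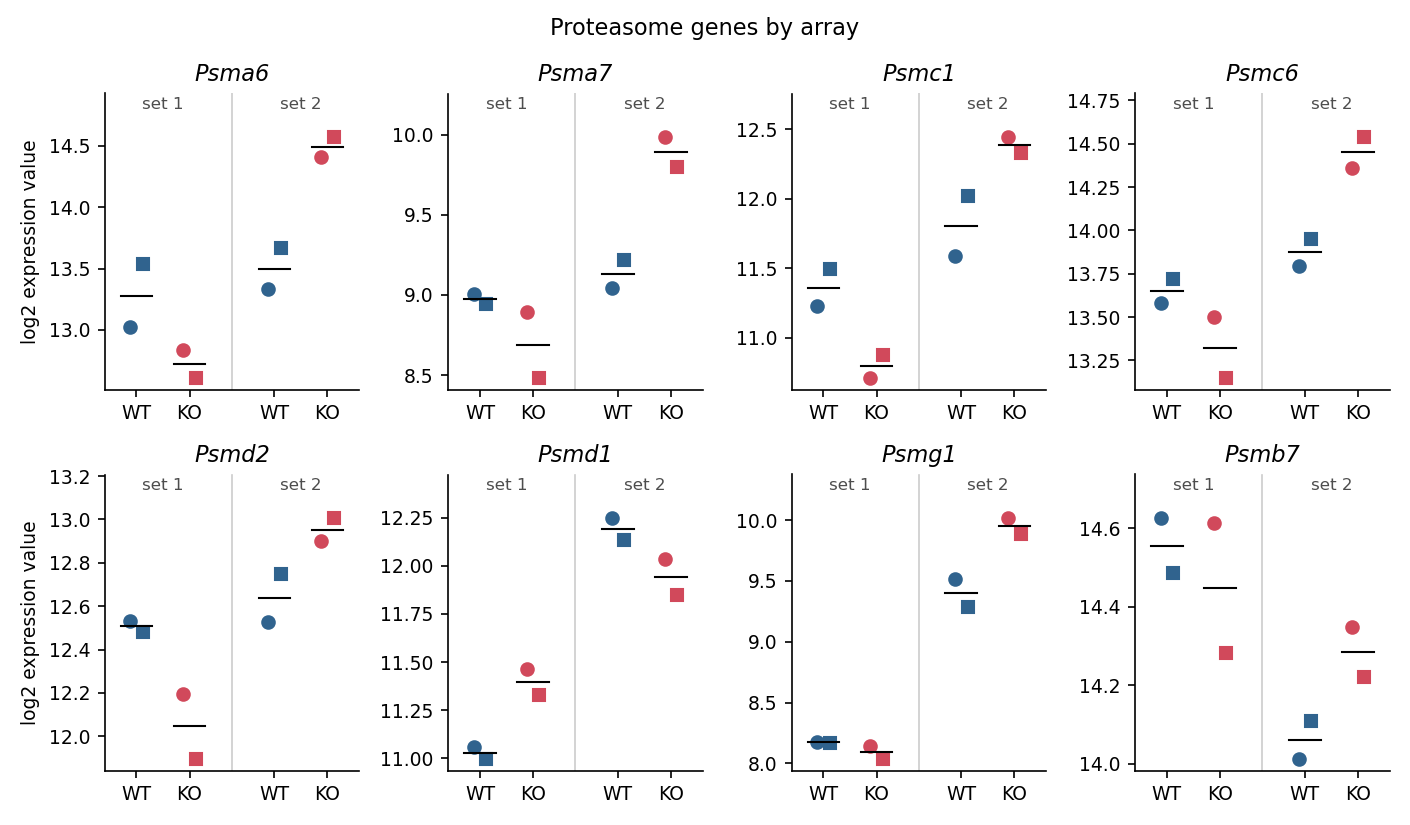
Log2 expression values of 8 members on each array, with wild type in blue and KO in red, set 1 left and set 2 right of the grey line; circles are replicates 1 and 3, squares replicates 2 and 4, and bars are means of 2 arrays. Psma6, Psma7, Psmc1, Psmc6, Psmd2 and Psmg1 have both KO points below wild type in set 1 and above it in set 2, Psmd1 shows the reverse, and Psmb7 overlaps in set 1. The genes were chosen after their values were seen, and each panel has its own axis.

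The beta ring, which carries the cutting sites, showed smaller differences. Of its 8 members 6 had a lower KO mean in set 1 and 7 a higher one in set 2, with medians of -0.08 and 0.21. After quantile normalization the set 1 median was 0.01, on the other side of 0, and the set 2 median 0.09. No beta subunit had parted groups in both sets, and 0 of 8 reached an unadjusted p under 0.05 in any comparison. Psmb7, the subunit with trypsin-like activity, read 14.61 and 14.28 in KO against 14.63 and 14.49 in wild type of set 1, and 14.35 and 14.22 against 14.01 and 14.11 in set 2. Only the set 2 groups parted, by 0.22 (SE 0.14), and this difference was 0.04 after quantile normalization. Psmb6, the subunit with caspase-like activity, read 9.48 and 9.31 against 9.49 and 9.52 in set 1, and 10.68 and 10.30 against 10.22 and 10.41 in set 2, where the groups overlapped. Psmb10, which takes the place of Psmb7 in the immunoproteasome, read 5.34 and 5.25 against 5.16 and 5.26, and 6.79 and 6.48 against 6.77 and 6.56. Its groups overlapped in both sets, and the differences were 0.08 and -0.03. Psmb2 and Psmb4, structural subunits of the ring, had set 2 differences of 0.29 and 0.25 and set 1 differences of 0.03 and -0.03. Psmb1 and Psmb3 differed by -0.32 and -0.25 in set 1 and by 0.28 and 0.19 in set 2.

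The ATPases of the 19S cap had the highest share of the classes for groups parted below in set 1 and for groups parted in both sets, whereas the alpha ring had the highest for groups parted above in set 2. Of the 6 genes, 5 had both KO arrays below wild type in set 1, 4 had both above in set 2, and 4 did both (Psmc1, Psmc4, Psmc5 and Psmc6). Over all genes these patterns had shares of 19.5%, 23.9% and 7.42%, and over genes above background 30.4%, 31.1% and 14.1%. The count of 4 for both was the same after quantile normalization (6.19% of all genes and 10.1% of genes above background) and after median centring. The class medians were -0.27 and 0.33, and -0.17 and 0.25 after quantile normalization. Psmc1 read 10.71 and 10.87 in KO against 11.23 and 11.49 in wild type of set 1, and 12.44 and 12.33 against 11.59 and 12.02 in set 2. The gaps were of like size in opposite directions, -0.57 and 0.58 (SE 0.17 each), and differed by 1.15 (SE 0.24, limma adjusted p = 0.0964). Psmc6 read 13.50 and 13.15 against 13.58 and 13.72, and 14.36 and 14.54 against 13.79 and 13.95, with differences of -0.32 and 0.58 (SE 0.15 each). Psmc4 and Psmc5 differed by -0.28 and -0.26 in set 1 and by 0.36 and 0.30 in set 2. The gap of Psmc4 in set 1 was small, with KO at 9.84 and 9.77 against 9.86 and 10.31. Psmc3 parted in set 1 only (-0.26), and Psmc2 in neither, reading 10.90 and 10.67 against 10.87 and 10.63 in set 1 and 11.67 and 11.56 against 11.48 and 11.60 in set 2.

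The non-ATPase subunits of the cap were divided. Of 11 genes, 8 had a lower KO mean in set 1 and 7 a higher one in set 2, with medians of -0.06 and 0.12; after quantile normalization the set 1 median was 0.03, on the other side of 0, and the set 2 median 0.06. The groups of 3 parted below in set 1 and above in set 2 (27.3%, against 7.42% of all genes and 14.1% of genes above background). After quantile normalization 1 did (9.09%, against 6.19% and 10.1%), so near the background. Those of Psmd1 parted the other way, as did 5.29% of all genes and 6.25% of genes above background. Psmd2, a large scaffold subunit at the base of the cap, read 12.19 and 11.90 in KO against 12.53 and 12.48 in wild type of set 1, and 12.90 and 13.01 against 12.53 and 12.75 in set 2. Its groups parted both times, by -0.46 and 0.32 (SE 0.14 each). Psmd1, the other large scaffold of the base, read 11.46 and 11.33 against 11.06 and 11.00, and 12.03 and 11.85 against 12.25 and 12.13. It was thus the reverse of Psmd2, at 0.37 and -0.25 (SE 0.11 each), and the contrast of -0.62 (SE 0.16, limma adjusted p = 0.137) kept its sign with any 1 array left out (-0.71 to -0.52). Psmd7, a lid subunit, differed by -0.23 and 0.38, and Psmd4, a receptor for ubiquitin chains, by -0.19 and 0.21, with parted groups in both sets. Psmd8 and Psmd11 parted in set 2 only, by 0.34 and 0.26. Psmd14, the lid enzyme that removes ubiquitin from the substrate, read 8.20 and 7.87 against 8.07 and 8.02, and 9.67 and 9.63 against 9.39 and 9.68. Its groups overlapped in both sets. Psmd12, at -0.06 and -0.13, and Psmd6, Psmd3 and Psmd13, at 0.13, 0.08 and -0.06 in set 1 and -0.15, -0.08 and 0.03 in set 2, had smaller differences as deposited. After quantile normalization the set 2 differences of Psmd12 and Psmd6 were -0.32 (limma adjusted p = 0.342) and -0.27 (limma adjusted p = 0.614), farther from 0.

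Activators bind the core in place of the cap. Psme4, the large nuclear activator, read 10.62 and 10.55 in KO against 10.71 and 10.90 in wild type of set 1, and 11.55 and 11.66 against 11.30 and 11.39 in set 2, with differences of -0.22 and 0.26 (SE 0.11 each). Psme1, a subunit of the interferon-inducible activator, pointed the other way at 0.16 and -0.11, and its groups parted in set 2 only. Psme3, its nuclear relative, differed by -0.23 in set 1, where WT replicate 2 was highest at 11.78, and its groups overlapped in both sets.

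Assembly factors were mixed as well. Psmg1 and Psmg2 form the chaperone pair on which the alpha ring is built, and both were higher in KO of set 2. Psmg1 read 8.14 and 8.04 in KO against 8.18 and 8.17 in wild type of set 1, and 10.02 and 9.88 against 9.52 and 9.29 in set 2, a difference of 0.55 (SE 0.12, limma adjusted p = 0.119). Psmg2 read 8.14 and 7.72 against 8.38 and 7.996, and 9.98 and 10.01 against 9.37 and 9.61, a set 2 difference of 0.50 (SE 0.19). In set 1 the gap of Psmg1 was small (-0.08, and 0.01 after quantile normalization) and the groups of Psmg2 overlapped. The chaperones of the cap base had smaller set 2 differences. Psmd5 read 8.76 and 8.53 against 8.92 and 9.04, and 10.72 and 10.79 against 10.61 and 10.98, with differences of -0.33 and -0.04. Psmd9 and Psmd10 differed by -0.04 and -0.08 in set 1 and by 0.13 and 0.12 in set 2. Psmg4, a further alpha ring chaperone, differed by -0.23 and -0.07.

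**Figure D3:**
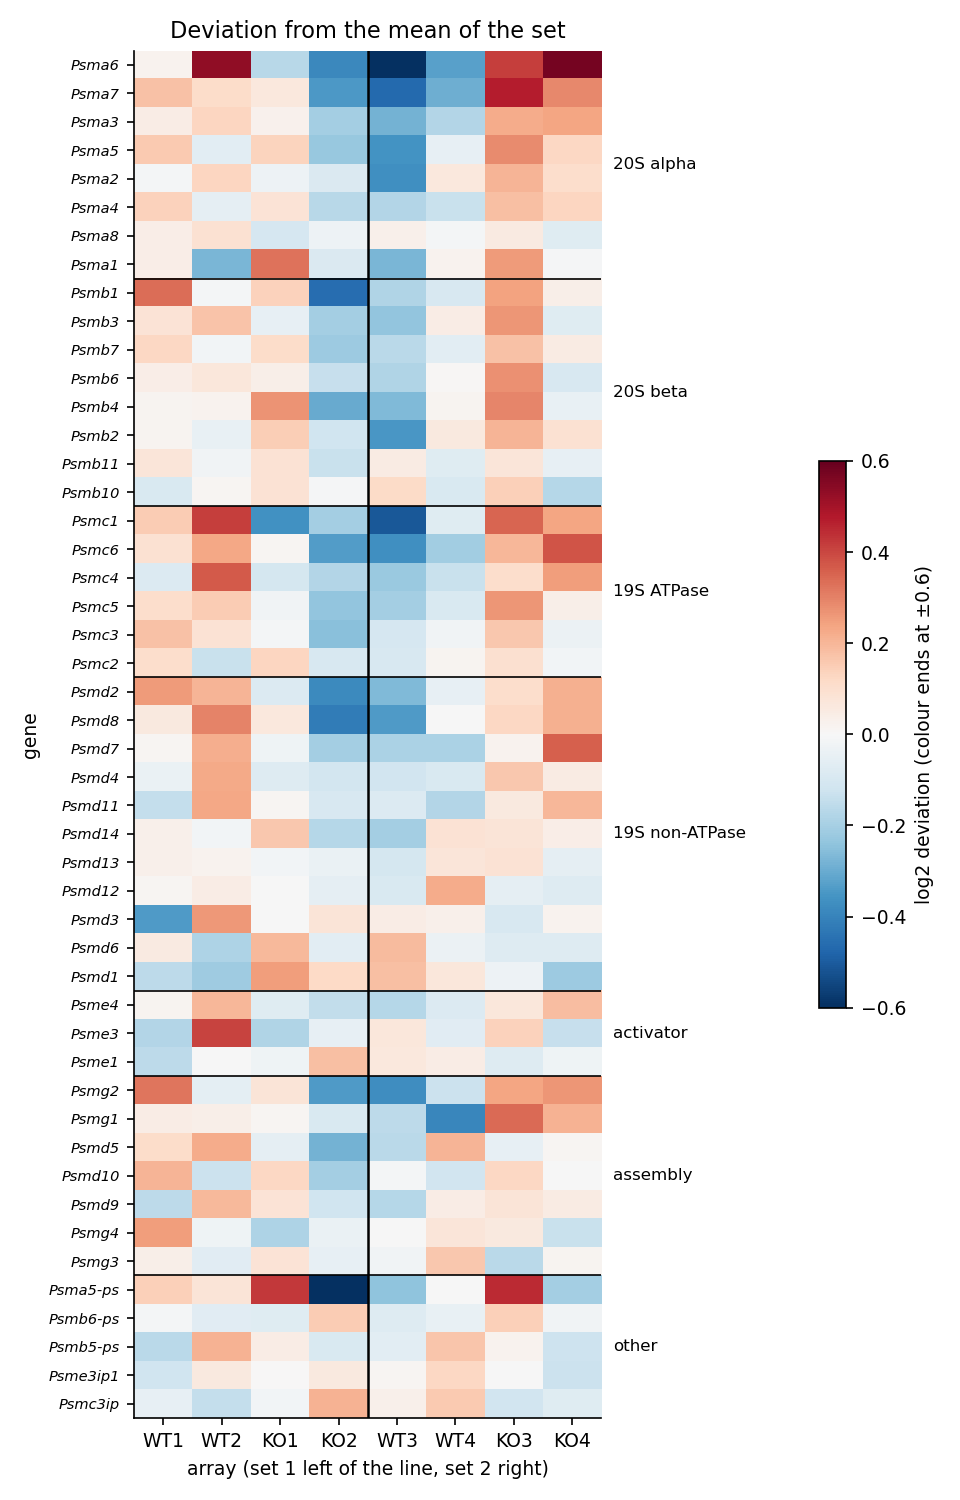
Each row is a member and each column an array; colour gives the log2 value minus the mean of the 4 arrays of its set, red above and blue below, ending at 0.6 either way. KO2 is the bluest column of set 1 and WT3 that of set 2, while red gathers in WT2 and in KO3 and KO4. By class median, WT2 is reddest in the non-ATPase, activator and ATPase classes. KO3 is reddest in the alpha and beta classes, and KO4 in the ATPase and alpha classes.

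A few arrays stood out across the members. In set 1 the array of KO replicate 2 was the lowest of the 4 for 30 of the 48 members, and that of WT replicate 2 the highest for 21. In set 2 WT replicate 3 was the lowest for 31 and KO replicate 3 the highest for 26. These counts were taken over the members only, so no share over all genes stands beside them. The median deviation of all members from the mean of their set was 0.01 and -0.14 for the KO arrays of set 1, where wild type had 0.04 and 0.06. For the KO arrays of set 2 it was 0.13 and 0.02, where wild type had -0.17 and -0.03. For genes above background the same 4 arrays stood out in the same direction. KO replicate 2 (-0.05), WT replicate 3 (-0.04) and KO replicate 3 (0.06) did so by less than for the members. WT replicate 2, at 0.07, did so by about as much as for the members (0.06). Without KO replicate 2 the member median of set 1 was -0.03, and without KO replicate 3 that of set 2 was 0.09. The share of members that parted below in set 1 and above in set 2 was 27.1% to 43.8% with 1 array left out, against 9.35% to 12.4% of all genes and 15.8% to 22.6% of genes above background; groups of 1 against 2 part more easily, so these counts are not set against the 13.

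**Figure D4:**
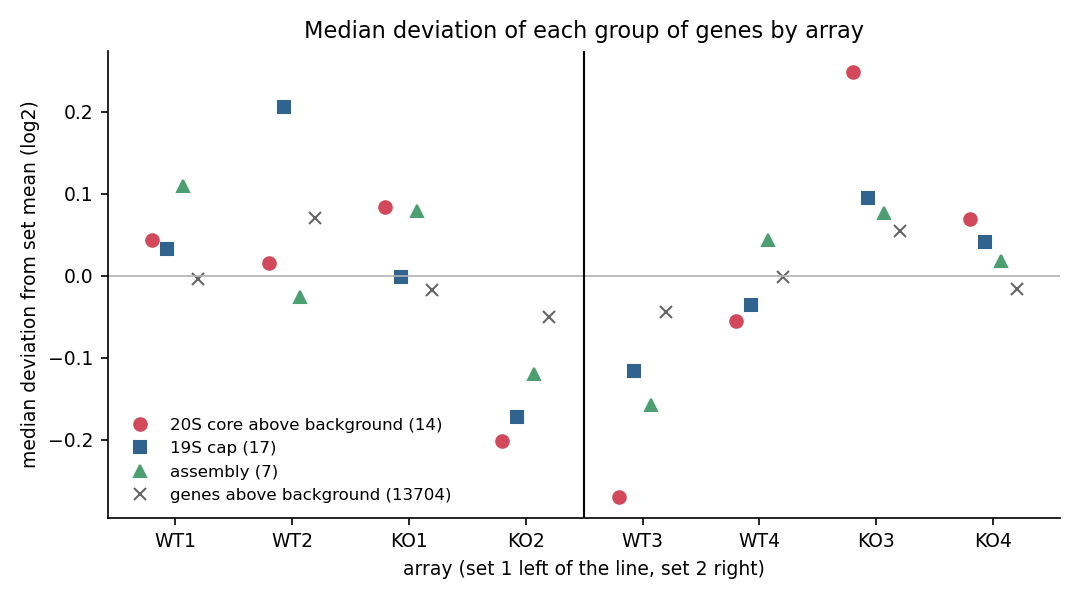
The y axis gives, for each array on the x axis, the median over a group of genes of the log2 deviation from the mean of the array's set. The 14 core subunits above background run from -0.27 in WT3 to 0.25 in KO3, and the grey crosses of the 13704 genes above background stay between -0.05 and 0.07.

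Other cell types also varied between these arrays, and their part in the proteasome values was not tested. In bulk tissue fewer cells of a type and less RNA per cell cannot be told apart. The mean of 13 liver markers, of which 3 were above background on all arrays, was 12.43 and 9.09 in KO against 8.70 and 6.71 in wild type of set 1, with 12 of 13 higher in KO. In set 2 it was 5.14 and 5.28 against 5.16 and 5.08, with 10 of 13 higher in KO. For 18 skeletal muscle markers (13 above background) the mean was 6.11 and 8.82 against 7.87 and 7.38 in set 1 and 5.61 and 10.27 against 10.66 and 8.96 in set 2, with overlapping groups both times, and 18 of 18 had a lower KO mean in set 2. The 12 brown adipocyte markers averaged 14.68 and 14.97 in KO against 15.27 and 15.27 in wild type of set 1. There 6 had a lower and 6 a higher KO mean, with a median difference of -0.05. Dio2 had the widest difference of that set, at 6.53 and 7.38 against 12.01 and 11.15. In set 2 the 12 markers averaged 16.12 and 15.55 against 15.79 and 15.96, and 10 of 12 had a lower KO mean. The 7 endothelial markers, all above background, averaged 9.47 and 9.54 against 9.34 and 9.89, and 11.28 and 11.41 against 10.86 and 11.08. Of these, 5 of 7 had a higher KO mean in set 2, as had 53.5% of all genes and 56.4% of genes above background. Their median difference there was 0.05, and Cldn5 had the widest, at 9.14 and 9.29 against 7.11 and 7.07. For macrophages (12 markers, 11 above background) the means were 6.15 and 5.77 against 6.00 and 5.79, and 7.59 and 7.77 against 7.30 and 7.57. In set 2, 10 of 12 had a higher KO mean, as had 53.5% of all genes and 56.4% of genes above background. The groups of 6 parted above in set 2, against 23.9% and 31.1%. Lymphocyte markers, of which 1 of 11 was above background, averaged 3.55 to 3.69 in set 1 and 4.64 to 4.73 in set 2. The 7 fibroblast markers (all above background) averaged 6.77 to 7.02 in set 1, and 8.44 and 8.42 in KO against 8.74 and 8.72 in wild type of set 2. Of 8 white adipocyte markers 3 were above background, and the mean was 4.75 to 4.87 in set 1 and 5.97 and 6.12 against 6.39 and 6.29 in set 2. Groups parted in other lists too. In set 1, 8 of 13 liver markers parted above, against 18.9% of all genes and 12.9% of genes above background. In set 2, 6 of 7 fibroblast and 5 of 8 white adipocyte markers parted below, against 19.1% and 22.2%. No marker passed in any of the comparisons.

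Genes that control, assemble or accompany the proteasome were taken from a list of 35, of which 25 were measured under 1 gene name. None of the 25 passed over all arrays, within a set or in the difference between the sets (limma, lowest adjusted p = 0.0519). At an unadjusted p under 0.05 the list counted 1 over all arrays (4.83% of all genes and 5.57% of genes above background). Within set 1 it counted 4 (16%, against 7.75% and 13.5%). Within set 2 it counted 9 (36%, against 15.1% and 23.8%). In the difference between the sets it counted 10 (40%, against 14.9% and 26.2%). The median was -0.02 in set 1, with 16 of 25 lower (64%, against 48.9% of all genes and 63.1% of genes above background). In set 2 it was 0.17, with 18 of 25 higher (72%, against 53.5% and 56.4%). The groups parted below in set 1 and above in set 2 in 3 genes, Pomp, Ngly1 and Uchl5. The 3 genes are 12% of the list, against 7.42% of all genes and 14.1% of genes above background, so this share is near the background. The other way was seen in 2 of the 25, Nfe2l1 and Ube3c, against 5.29% of all genes and 6.25% of genes above background, so near the background too.

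Nfe2l1, the activator of proteasome genes, had the reverse order of the alpha ring. It read 12.25 and 12.64 in KO against 11.92 and 12.22 in wild type of set 1, and 12.49 and 12.45 against 13.22 and 13.10 in set 2. KO lay above wild type in the first set, by 0.37, and below it in the second, by 0.69 on the log2 scale, and the contrast was -1.07 (SE 0.23, limma adjusted p = 0.102; -1.32 after quantile normalization). Ngly1, the enzyme that removes sugars from the Nfe2l1 protein, differed by -0.31 and 0.19, and Nfe2l2, a relative of Nfe2l1, by -0.60 and 0.33. Nfe2l3, the third relative, had the smallest p of the list over all arrays and was higher in KO of both sets, at 3.93 and 3.88 against 3.70 and 3.75 and at 5.32 and 5.25 against 5.08 and 4.90. Its values lay close to background, and the difference of 0.24 did not pass (limma adjusted p = 0.986).

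Uchl5, a deubiquitinase bound to the cap, had the lowest adjusted p of the list and is named after its values were seen. It read 10.27 and 10.17 in KO against 10.83 and 11.11 in wild type of set 1, and 11.58 and 11.61 against 10.93 and 11.17 in set 2. The differences of -0.75 and 0.54 (SE 0.13 each) were 1.29 apart (SE 0.19, limma adjusted p = 0.0519). In limma Uchl5 passed after quantile normalization (adjusted p = 0.0481) and with only genes of a mean above the median of all genes (adjusted p = 0.0362). It also passed with only genes above background (adjusted p = 0.029), a filter added after the data were seen. It did not pass after median centring, nor with a variance trend in eBayes, where 0 genes were called. With any 1 array left out the contrast of Uchl5 ran from 1.16 to 1.43. Pomp, the chaperone of the beta ring, differed by -0.15 and 0.39 and Txnl1, a thioredoxin-like protein of the cap, by -0.12 and 0.59. Sem1, a small lid subunit outside the symbol rule, differed by -0.31 and 0.02, and Ubqln4, which brings ubiquitinated proteins to the proteasome, by -0.02 and -0.42. Psmb8 and Psmb9, the immunoproteasome counterparts of Psmb5 and Psmb6, read 4.27 to 4.59 and 3.93 to 4.15 in set 1 and 5.24 to 5.56 and 5.24 to 5.29 in set 2. Their differences lay between -0.13 and 0.13 in both sets, and neither had parted groups in set 1 and set 2 both.

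**Figure D5:**
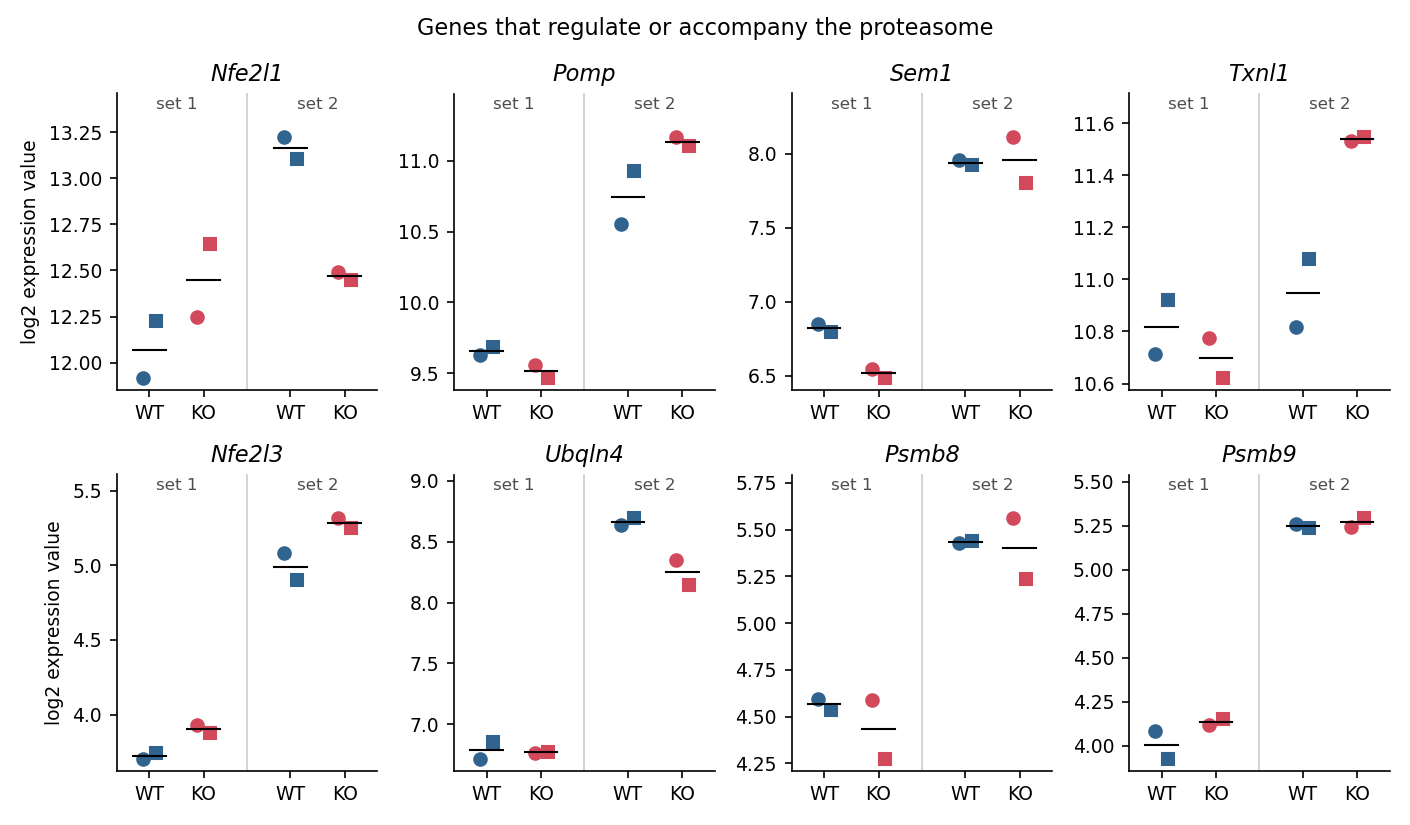
Log2 expression values of 8 genes of the pathway list on each array, drawn as in the plot of member values (wild type blue, KO red, bars for means of 2 arrays, set 1 left and set 2 right). Nfe2l1 is higher in KO of set 1 and lower in KO of set 2, Pomp has the opposite order, and Psmb8 overlaps in both sets.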

How the data were processed

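Total RNA of interscapular brown fat was measured on 8 arrays, 1 per mouse. Per the labels, the deposited log2 values were made by the authors with RMA in Affymetrix Expression Console (core-exon analysis); neither versions nor a genome build were named. Sets 1 and 2 were treated as normalized apart. No scanner files were used, so the number of arrays and the signal over background limit the precision.

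Of 72688 probe sets, 6732 were controls, 30842 had 1 gene in the platform annotation, 1908 several and 33206 none. Current symbols came from RefSeq (GRCm38.p6), where 30840 of the 30842 were found. A gene with several probe sets (400 genes, no member) took the one with the highest mean. KO minus wild type was fitted with limma 3.58.1 (R 4.3.3, lmFit and eBayes), and the set entered as a block. Differences within and between sets came from a fit with 4 means. A Benjamini-Hochberg adjusted p under 0.05 over all genes was the threshold, without a filter; the code was tested on simulated data. Arrays are separate animals per the design text.

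The members and lists were chosen with earlier results of these data known. The 34 members and 8 list genes named by rule were the catalytic subunits, Psmb10, Psma8, Psmb11 and Psmc3ip, the 3 smallest p values of each class, any unadjusted p under 0.05, and Nfe2l1, Pomp, Psmb8, Psmb9 with the 4 smallest p values of the list. Others named were chosen after their values were seen. Alternatives were scaling, filters, probe sets, variance models, blocks and leaving out each array; the filter on background was added after seeing the data.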

Additional observations from a re-analysis of the deposited data

Results flagged for a closer look

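The KO minus wild type difference differed between the sets in 151 of 30346 genes by the interaction test in limma (adjusted p under 0.05). None of the 48 proteasome genes was among them, and the closest was Psma6 with an adjusted p of 0.0771. With any 1 array left out limma called 0 to 10 genes in place of the 151. The labels name nothing that sets replicates 1 and 2 apart from replicates 3 and 4. A check for single stray arrays is not given, because each group of 4 joins arrays of both sets, whose levels lie apart.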

How the results depend on the processing

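The count of 0 members called was the same under every alternative run, except that Psma6 (1 member) passed in the difference between the sets under each of the 2 filters. With genes of a mean above the median of all genes, 13 genes were called within set 2 and 374 in the difference between the sets; with genes above background, 2 were called within set 1, 48 within set 2 and 519 in the difference. Other counts for the difference were 81 after median centring and 0 with a variance trend in eBayes, with or without the robust option; within set 2 they were 0 after quantile normalization and 0 when the arrays of the set were fitted alone. Quantile normalization gave member medians of 0.1062 in set 2 and 0.1374 for the difference (main 0.29). It left 13 members parted below in set 1 (27.1%), against 19.8% of all genes and 23.4% of genes above background, so near the background. It left 7 parted below in set 1 and above in set 2 (14.6%), against 6.19% and 10.1%. Why these values moved was not tested.

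With each array left out in turn, genes called were 0 to 1 over all arrays, 0 to 14 within set 1, 0 to 10 within set 2 and 0 to 10 in the difference. Member medians were -0.01 to 0.1004 over all arrays, -0.1849 (without KO replicate 1) to -0.03 (without KO replicate 2) in set 1, 0.0895 (without KO replicate 3) to 0.2678 in set 2, and 0.1801 (without KO replicate 3) to 0.4051 (without KO replicate 1) for the difference. Members that parted below in set 1 and above in set 2 were 13 to 21 (27.1% to 43.8%). The shares were 9.35% to 12.4% of all genes and 15.8% to 22.6% of genes above background. Parted members were 21 to 33 below in set 1 and 24 to 36 above in set 2, for which no share over all genes is given. Groups of 1 against 2 part more easily, so none of these counts is set against those from all arrays.

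Of 590 single-gene values under alternatives that kept all arrays, 17 changed sign, none of them past the threshold. After quantile normalization the set 1 differences with the other sign were 0.0056 (Psma4), 0.0061 (Psma5), 0.0446 (Psmb4), 0.0687 (Psmb7), 0.0147 (Psmd10), 0.0139 (Psmd11), 0.0455 (Psmd12), 0.031 (Psmd13), 0.0751 (Psmd14), 0.0127 (Psmg1), 0.0401 (Psmb5-ps) and 0.0647 (Ubqln4). In set 2 they were -0.0104 (Psmc2), -0.0105 (Psmd13), -0.0331 (Sem1) and -0.0012 (Psmb9), and after median centring -0.0011 (Psmb2, set 1).

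Differences whose sign turned when 1 array was left out had these ranges. In set 1: Psma4 -0.2109 to 0.0364, Psma5 -0.2741 to 0.0869, Psmb2 -0.1068 to 0.16, Psmb4 -0.3219 to 0.2527, Psmb7 -0.2728 to 0.0574, Psmc2 -0.0875 to 0.1517, Psmd3 -0.2193 to 0.3777, Psmd6 -0.001 to 0.2589, Psmd9 -0.2131 to 0.1396, Psmd10 -0.2441 to 0.0893, Psmd11 -0.2731 to 0.1022, Psmd14 -0.1787 to 0.1555, Psme3 -0.5188 to 0.0636, Psme3ip1 -0.0286 to 0.1495, Psmb5-ps -0.2337 to 0.1389, Ubqln4 -0.0856 to 0.0515 and Psmb8 -0.2912 to 0.0235. In set 2: Psmb6 -0.0092 to 0.3645, Psmb10 -0.1839 to 0.1316, Psmd5 -0.2212 to 0.1439, Psmd12 -0.2878 to 0.024, Psmd13 -0.0542 to 0.1199, Psmd14 -0.0249 to 0.2642, Psme3 -0.1415 to 0.1347, Psmg4 -0.1695 to 0.0244, Psmb5-ps -0.2166 to 0.0099, Sem1 -0.1399 to 0.1708, Psmb8 -0.1961 to 0.1263 and Psmb9 -0.003 to 0.0451. Over all arrays Psma6 ran from -0.0057 to 0.4726.

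Same-numbered arrays correlated at 0.701, 0.472, 0.478 and 0.61. Once the set was removed, they correlated at 0.108 in set 1 and at -0.0897 in set 2. With 2 arrays per genotype and set, both replicates of a set then give the same value by construction. These values therefore cannot decide whether the replicate numbers pair the samples. With the replicate block 0 genes and 0 members were called; without the set as a block, 0 genes and 0 members were called too. A difference within a set rests on 2 arrays against 2. Psma8, Psmb11, Psmb6-ps and Psmg3 were within background, so their differences are not measured well.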

Other observations

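The 5 members outside the classes are 3 pseudogenes and 2 genes of other function. Psma5-ps read 8.02 and 6.95 in KO against 7.74 and 7.67 in wild type of set 1, and 8.33 and 7.68 against 7.64 and 7.88 in set 2, so the 2 KO arrays of set 1 lay farther apart than the groups did. Its probes may also read the parent gene Psma5, and the same holds for Psmb5-ps, which differed by -0.05 in set 1 and -0.10 in set 2. Psmb6-ps lay within background. Psmc3ip, a cofactor of meiotic recombination that shares only its name stem with the ATPases, read 4.10 and 4.33 against 4.07 and 3.98 in set 1 and 5.28 and 5.33 against 5.43 and 5.55 in set 2. Its groups parted both times in the order of Psmd1 (differences 0.19 and -0.19), at values close to background. Psme3ip1, a partner of the activator Psme3, differed by 0.06 and -0.13.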
